A study of Rattus norvegicus with 10 samples.

Results

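The duct epithelium of the rat submandibular gland moves sodium, chloride and bicarbonate with the products of a small set of genes, and 9 of them, among 15168 named genes with a probe, are described here. The genes are Scnn1a, Scnn1b, Scnn1g, Cftr, Slc26a9, Slc26a4, Slc26a6, Slc4a4 and Slc9a3. They were chosen by function: a probe belonged to the group when the RefSeq accession in the scanner files gave a listed symbol, which was the case for 13 of 30367 probes. Every one of the 13 probes was well above background on all 10 arrays, so that 9 of 9 genes entered the test among 14711 named genes tested. Messenger RNA had been measured in whole submandibular glands with one-colour Agilent arrays, 1 array per rat. There were 5 spontaneously hypertensive rats (SHR), whose blood pressure rises with age without any treatment, and 5 Wistar Kyoto rats (WKY), normotensive controls matched to them for age and weight. All rats were males aged 14 weeks, and the labels name no treatment. A rat is called here by its strain and the paired numbers of its title, as in SHR 3-3, and the labels do not say what these numbers stand for. The question set by the design is which transcripts of the gland differ between the hypertensive and the control strain.

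Saliva is made in stages. Acinar cells secrete a fluid rich in sodium and chloride, and the ducts then take both ions back and add potassium and bicarbonate, while letting little water through. Sodium enters the duct cell from the lumen through the epithelial sodium channel, ENaC, which is built from the alpha, beta and gamma subunits encoded by Scnn1a, Scnn1b and Scnn1g, and is controlled by aldosterone. Chloride enters through CFTR, the cyclic AMP-regulated anion channel, and the SLC26 exchangers swap chloride for bicarbonate. Slc4a4 encodes NBCe1, the sodium bicarbonate cotransporter that brings bicarbonate into the cell from the blood side, and Slc9a3 encodes the sodium-proton exchanger NHE3.

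Values are given as scaled log2 intensity, that is, log2 of the processed probe signal minus the 75th percentile of the same array. Levels of different probes cannot be compared with each other on this scale, and each gene was therefore compared only across rats. The 75th percentile signal of the 10 arrays lay between 333 and 648, and 94.8% to 97.7% of spots were well above background. SHR 3-3 had the lowest of both, and stood apart: in it 420 genes were lower by 2-fold or more than in the remaining SHR arrays on average, where the same count for each of the other 9 arrays, within its strain, was 10 to 45. Since it bears on most of the genes described here, differences are given with and without it. Of the tested markers of the granular convoluted tubule (the androgen-dependent duct segment that stores kallikreins and growth factors), 9 of 9 were above background on all arrays. So were 9 of 9 duct markers and 9 of 9 acinar markers. The same held for 8 of 8 skeletal muscle, 5 of 5 erythrocyte, 3 of 3 parotid and 4 of 4 sublingual markers. Being above background therefore does not tell which tissue was sampled. In RNA from whole glands, fewer cells of a type and less RNA per cell cannot be told apart.

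Of the 9 genes, Slc4a4 was lower in SHR (log2 difference −0.47 ± 0.10 SE, n = 5 per strain, limma adjusted p = 0.0176), 0 were higher, and 8 did not pass the threshold of 0.05. Over all genes tested 4.36% passed, 2.85% as lower and 1.51% as higher. Without adjustment, 2 of the 9 genes (Slc4a4 and Scnn1a) had p below 0.05, against 20.3% of all genes. The median log2 difference over the 9 genes was −0.41, against −0.02 over all genes tested, and without SHR 3-3 it was −0.10, against −0.03. Of all calls, 65.4% were lower in SHR, a share that became 50.5% with the authors' values and 53.5% with scaling to the array median. Without SHR 3-3 Slc4a4 was again the gene called (log2 difference −0.44 ± 0.10, adjusted p = 0.0273), where 4.92% of all genes passed and 3.32% passed as lower; it was also without overlap between the strains then, as were 9.68% of all genes.

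**Figure D1:**
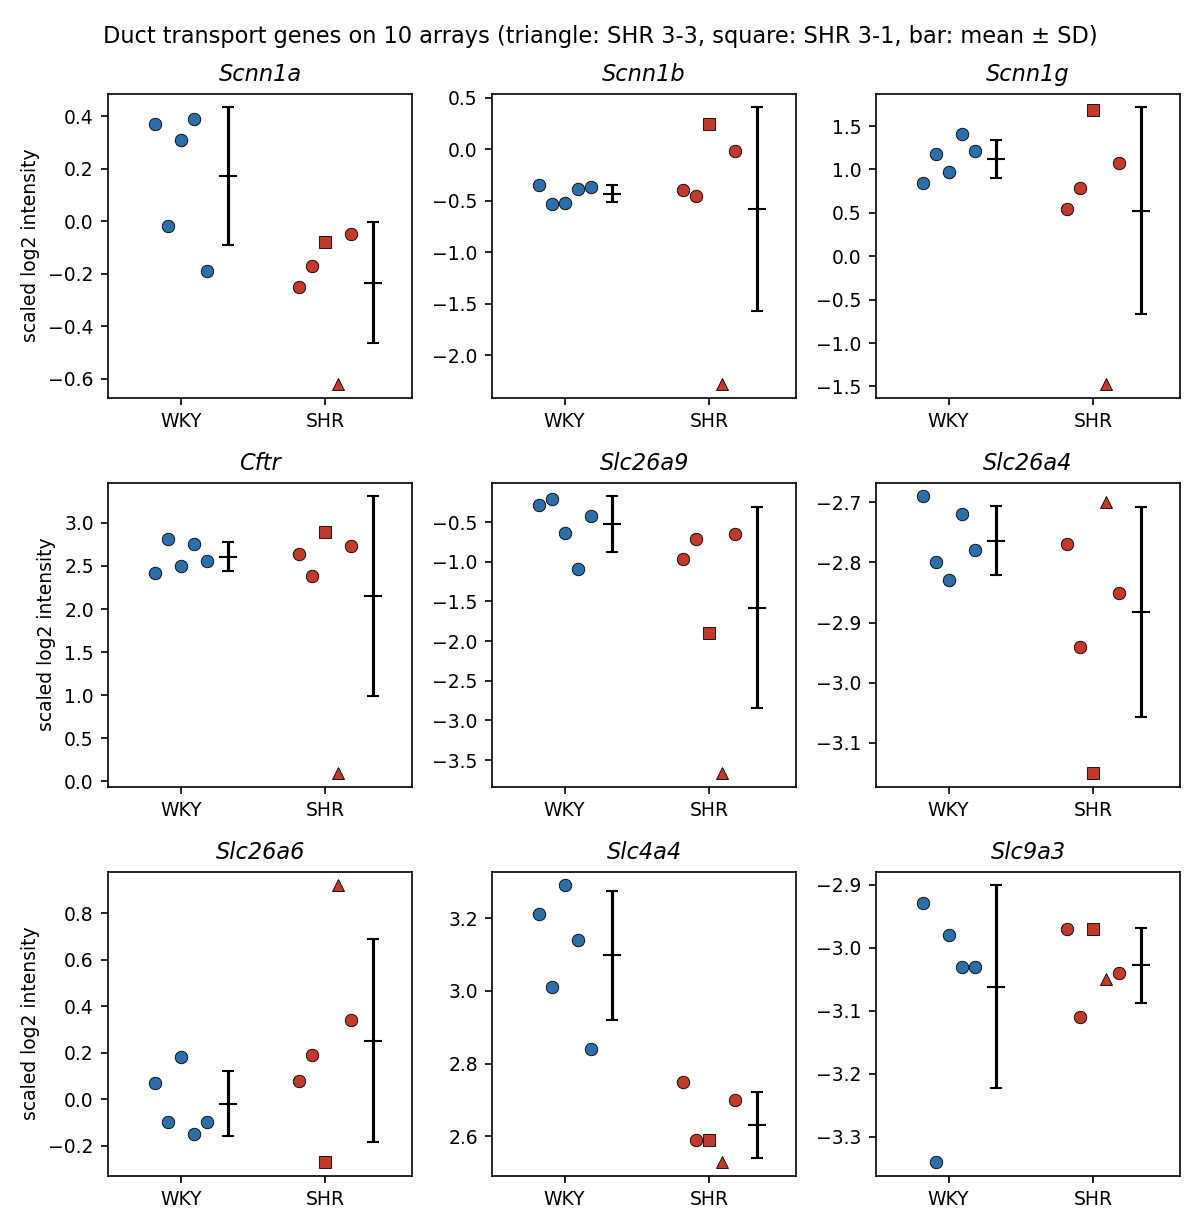
Scaled log2 intensity of the 9 genes on each of the 10 arrays, with WKY in blue and SHR in red, and the mean ± SD of each strain (n = 5) beside the points. Each panel has its own axis. SHR 3-3 (triangle) is the lowest SHR array for Scnn1a, Scnn1b, Scnn1g, Cftr, Slc26a9 and Slc4a4 and the highest for Slc26a6 and Slc26a4, and the strains do not overlap for Slc4a4.

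Slc4a4 was measured by a bright and a dim probe for the same accession. On the brighter probe the scaled log2 intensity was 2.75 in SHR 2-1, 2.59 in SHR 2-3, 2.59 in SHR 3-1, 2.53 in SHR 3-3 and 2.70 in SHR 3-4, against 3.21 in WKY 1-2, 3.01 in WKY 1-3, 3.29 in WKY 1-5, 3.14 in WKY 4-1 and 2.84 in WKY 4-2. Every SHR rat was below every WKY rat, and the nearest pair were SHR 2-1 and WKY 4-2. Non-overlap of the strains was met by 7.25% of all genes tested. The means were 2.63 ± 0.09 (SD, n = 5) in SHR and 3.10 ± 0.17 in WKY, a 1.38-fold lower level in SHR with a 95% interval of the log2 difference from −0.68 to −0.26. The dimmer probe, near −2 on the same scale, also showed no overlap, with −2.03 in SHR 2-1, −2.23 in SHR 2-3, −2.09 in SHR 3-1, −2.36 in SHR 3-3 and −2.16 in SHR 3-4, and with −1.90, −1.79, −1.94, −1.93 and −1.58 in WKY 1-2, 1-3, 1-5, 4-1 and 4-2. Its log2 difference of −0.35 ± 0.10 missed the threshold when all 17385 probes of named genes were tested (adjusted p = 0.0663), a test in which 4.29% of probes passed, 2.80% as lower. Within WKY the probes did not order the rats alike. WKY 4-2 was the lowest on the brighter probe (2.84) and the highest on the dimmer one (−1.58). WKY 1-5 was the highest on the brighter probe (3.29) and the lowest on the dimmer one (−1.94). Within SHR both probes had SHR 2-1 highest and SHR 3-3 lowest.

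In the authors' deposited table, which was normalised separately, the mean log2 value of the brighter Slc4a4 probe was 11.63 in SHR and 12.12 in WKY. With those values the call stood (log2 difference −0.49 ± 0.09, adjusted p = 0.0103). It was lost without WKY 1-2 (−0.44 ± 0.11, adjusted p = 0.0555) and with the slide, taken here as the arrays that share a scan time, as a fixed block (−0.34 ± 0.19, adjusted p = 1), a fit in which 0.299% of all genes passed. Over all alternatives the adjusted p ranged from 6.6e-04 to 1. Slide and strain were largely confounded: slide 1 held SHR 2-3, 3-1, 3-3 and 3-4, slide 3 held WKY 1-2 and 1-3, and only slide 2 held both strains, so the blocked value compares SHR 2-1 with WKY 1-5, 4-1 and 4-2.

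**Figure D2:**
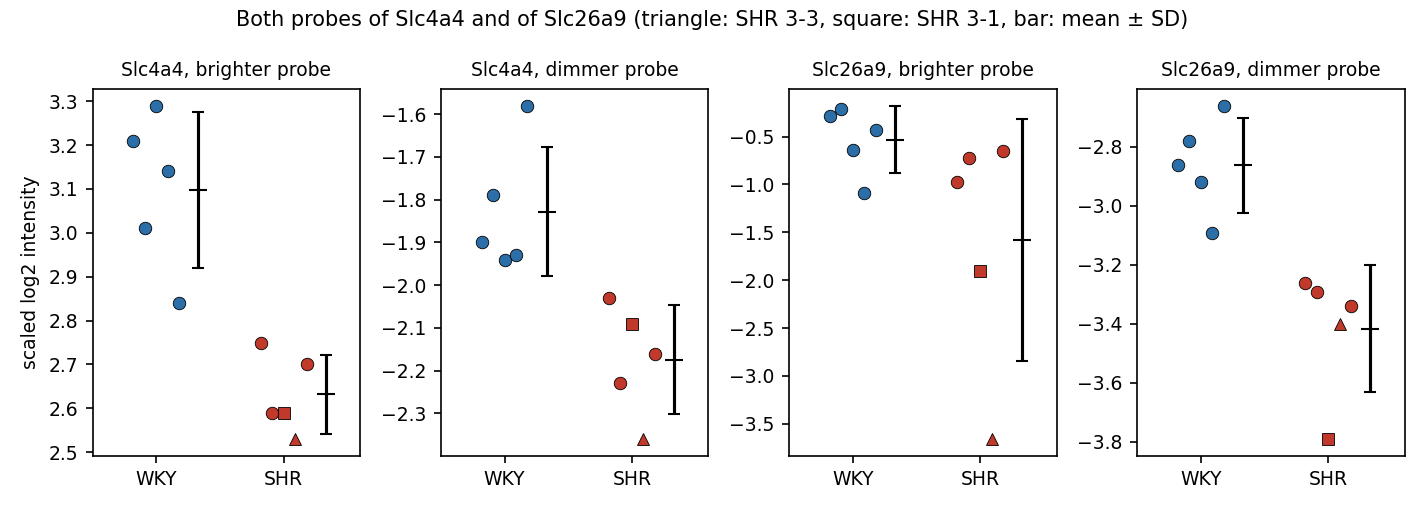
Scaled log2 intensity on each array of the brighter and the dimmer probe of Slc4a4 and of Slc26a9, with the mean ± SD of each strain (n = 5) and a separate axis for each panel. The strains are separate on both Slc4a4 probes and on the dimmer Slc26a9 probe. SHR 3-3 (triangle) lies at −3.66 on the brighter Slc26a9 probe and among the other SHR arrays on the dimmer one.

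The genes are spread over 6 chromosomes in the GRCr8 assembly of RefSeq. Scnn1g (chr1:185736225-185770099) and Scnn1b (chr1:185861326-185915717) lie on chromosome 1 with 91.2 kb between them, and Slc9a3 is on the same chromosome (chr1:30953215-30996209). Cftr (chr4:47422084-47694646) and Scnn1a (chr4:159809187-159832409) share chromosome 4. Slc26a4 (chr6:53835102-53873968), Slc26a6 (chr8:118438110-118448271), Slc26a9 (chr13:45730022-45757662) and Slc4a4 (chr14:19125394-19577379) are each alone on their chromosome. The arrays measured no regulatory region. The array design names build rn4, and these coordinates are those of RefSeq. Windows of 300 bases around a RefSeq transcript start, most of each upstream of it, are shown for the 4 genes that were lowest together in SHR 3-3 and for Slc4a4, the gene that passed the test. Capitals mark 3 short promoter motifs on either strand. They are the GC box, with the letters GGGCGG, then the box named after its own letters CCAAT, and the TATA box, searched for as TATAAA.
Scnn1g: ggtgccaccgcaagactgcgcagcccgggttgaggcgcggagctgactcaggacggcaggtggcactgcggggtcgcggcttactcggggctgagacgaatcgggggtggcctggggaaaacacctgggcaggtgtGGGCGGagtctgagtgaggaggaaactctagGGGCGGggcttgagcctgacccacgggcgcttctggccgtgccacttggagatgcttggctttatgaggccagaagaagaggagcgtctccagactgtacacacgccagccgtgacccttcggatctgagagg
Scnn1b: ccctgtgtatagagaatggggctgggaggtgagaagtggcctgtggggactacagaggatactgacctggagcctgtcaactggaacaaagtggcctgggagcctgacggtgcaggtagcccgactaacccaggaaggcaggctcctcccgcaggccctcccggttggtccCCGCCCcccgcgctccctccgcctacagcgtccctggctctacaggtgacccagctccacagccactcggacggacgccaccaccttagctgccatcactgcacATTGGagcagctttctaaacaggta
Cftr: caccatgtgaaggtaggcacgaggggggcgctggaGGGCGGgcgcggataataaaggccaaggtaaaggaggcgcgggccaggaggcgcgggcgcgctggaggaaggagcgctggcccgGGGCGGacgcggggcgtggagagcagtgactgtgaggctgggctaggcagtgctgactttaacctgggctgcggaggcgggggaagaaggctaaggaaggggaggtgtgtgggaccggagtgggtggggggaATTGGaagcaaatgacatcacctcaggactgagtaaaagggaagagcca
Slc26a9: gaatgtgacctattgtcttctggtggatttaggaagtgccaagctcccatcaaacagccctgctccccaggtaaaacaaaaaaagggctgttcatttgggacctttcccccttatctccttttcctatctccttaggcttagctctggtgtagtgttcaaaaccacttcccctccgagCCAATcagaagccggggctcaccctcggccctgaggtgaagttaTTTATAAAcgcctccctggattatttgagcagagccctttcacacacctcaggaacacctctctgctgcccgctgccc
Slc4a4: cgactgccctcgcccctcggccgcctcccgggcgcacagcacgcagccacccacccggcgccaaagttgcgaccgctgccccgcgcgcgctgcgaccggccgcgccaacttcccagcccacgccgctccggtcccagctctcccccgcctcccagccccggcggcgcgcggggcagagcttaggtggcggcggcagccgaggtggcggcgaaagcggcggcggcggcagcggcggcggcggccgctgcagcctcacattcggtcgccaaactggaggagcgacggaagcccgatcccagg
The windows are chr1:185735975-185736274 (+) for Scnn1g, chr1:185861126-185861425 (+) for Scnn1b, chr4:47527379-47527678 (+) for Cftr, chr13:45729833-45730132 (+) for Slc26a9 and chr14:19468233-19468532 (−) for Slc4a4. Those of Scnn1g, Scnn1b and Slc26a9 lie at the start of the gene. Those of Cftr and Slc4a4 lie far inside the gene, at an internal transcript start, and the outermost start of these genes is not shown.

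Windows were found for 7 of the 9 genes. A GC box was in those of Scnn1g, Scnn1b, Cftr and Slc9a3, and in 33.1% of 33469 RefSeq windows of this length. A TATA box was in the Slc26a9 window alone of the 7, as overlapping matches that begin 28 and 26 bases before the start, and 14.2% of all windows hold one. Scnn1b, Cftr and Slc26a9 had the CCAAT letters, as did 37.5% of all windows. The Slc4a4 window, at an internal start, held none of these and had a GC content of 78.0%, against a median of 51.7% over all windows. The letters of the steroid receptor hexamer (TGTTCT) and of the palindrome that contains it, the CRE (TGACGTCA) and a forkhead site (TGTTTAC) were not in these 7 windows, and were in 20.7%, 0.0149%, 1.83% and 3.78% of all windows. A match or its absence describes the letters of the window and says nothing on binding.

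Among the ENaC subunits none passed the test. Scnn1a, the alpha subunit, came nearest, at −0.25 in SHR 2-1, −0.17 in SHR 2-3, −0.08 in SHR 3-1, −0.62 in SHR 3-3 and −0.05 in SHR 3-4, against 0.37 in WKY 1-2, −0.02 in WKY 1-3, 0.31 in WKY 1-5, 0.39 in WKY 4-1 and −0.19 in WKY 4-2. WKY 1-2, 1-3, 1-5 and 4-1 were above all SHR rats, WKY 1-3 by little, while WKY 4-2 lay among them. The log2 difference was −0.41 ± 0.14 (SE, n = 5 per strain, 95% interval −0.72 to −0.10, adjusted p = 0.132), and −0.31 ± 0.13 without SHR 3-3 (adjusted p = 0.193). With the slide as a random block Scnn1a passed (adjusted p = 0.0162), in a fit whose within-slide correlation was estimated at −0.19 and in which 3451 of 14711 genes passed. With the slide as a fixed block Scnn1a did not pass (−0.42 ± 0.29, adjusted p = 1). The probe was printed 10 times on each array, and the value of a rat is the average of its spots. The SD of single spots was 0.13 in the median array, which overstates the spot noise of such an average. The SD of the averages over rats was 0.23 in SHR and 0.26 in WKY.

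Scnn1b, the beta subunit, was steady in WKY, at −0.35, −0.53, −0.52, −0.39 and −0.37 in WKY 1-2, 1-3, 1-5, 4-1 and 4-2. In SHR it was −0.40 in SHR 2-1, −0.46 in SHR 2-3, 0.24 in SHR 3-1, −2.28 in SHR 3-3 and −0.02 in SHR 3-4. The SHR rats thus held both the highest value of all 10 (SHR 3-1) and the lowest (SHR 3-3), with an SD of 0.99 against 0.08 in WKY. The log2 difference was −0.15 ± 0.37 (adjusted p = 0.856), and it turned to 0.27 ± 0.13 without SHR 3-3 (adjusted p = 0.280).

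Scnn1g, the gamma subunit, had the same rats at its extremes. It was 0.55 in SHR 2-1, 0.79 in SHR 2-3, 1.68 in SHR 3-1, −1.47 in SHR 3-3 and 1.07 in SHR 3-4, and 0.84, 1.18, 0.97, 1.41 and 1.21 in WKY 1-2, 1-3, 1-5, 4-1 and 4-2. SHR 3-1 was again the highest of the 10 and SHR 3-3 the lowest. The log2 difference was −0.60 ± 0.44 (95% interval −1.56 to 0.37, adjusted p = 0.481) and shrank to −0.10 ± 0.20 without SHR 3-3 (adjusted p = 0.828). This probe too had 10 spots per array, with a median SD over spots of 0.07, so that the low value of SHR 3-3 was read on repeated spots.

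Cftr was at 2.64, 2.38, 2.89, 0.10 and 2.73 in SHR 2-1, 2-3, 3-1, 3-3 and 3-4, and at 2.42, 2.81, 2.50, 2.75 and 2.56 in WKY 1-2, 1-3, 1-5, 4-1 and 4-2. Apart from SHR 3-3 the strains overlapped throughout. The processed signal of this probe was 358 in SHR 3-3 and between 2685 and 4789 in the other 9 rats. The log2 difference was −0.46 ± 0.43 (SE, n = 5 per strain, adjusted p = 0.583) and 0.05 ± 0.12 without SHR 3-3 (95% interval −0.21 to 0.31, adjusted p = 0.859). A dimmer Cftr probe differed by −0.11 ± 0.15 (adjusted p = 0.720), and SHR 3-3 was its lowest array too, at −3.45, 0.60 below the mean of the other SHR rats.

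Slc26a9, an anion transporter that conducts chloride, gave different results on its probes. On the brighter probe it was −0.97, −0.72, −1.90, −3.66 and −0.65 in SHR 2-1, 2-3, 3-1, 3-3 and 3-4, and −0.28, −0.21, −0.64, −1.09 and −0.43 in WKY 1-2, 1-3, 1-5, 4-1 and 4-2. SHR 3-1 and 3-3 were below all WKY rats, and the other SHR rats lay within the WKY range. The log2 difference was −1.05 ± 0.48 (adjusted p = 0.246), and −0.53 ± 0.25 without SHR 3-3 (adjusted p = 0.260), and −0.56 with array weights. With the slide as a fixed block it was −0.25 ± 0.91 (adjusted p = 1), and with the slide as a random block −1.18 ± 0.35, which passed (adjusted p = 0.0294). In that random fit the within-slide correlation was −0.19 and 3451 of 14711 genes passed, against 641 in the main fit. On the dimmer probe it was −3.26, −3.29, −3.79, −3.40 and −3.34 in the SHR rats in the same order and −2.86, −2.78, −2.92, −3.09 and −2.66 in the WKY rats. Here the strains did not overlap, as in 7.13% of probes of named genes. This probe passed in the test of all probes (−0.56 ± 0.12, adjusted p = 0.0206), also without SHR 3-3 (−0.56 ± 0.13, adjusted p = 0.0276), whereas the brighter one, which stood for the gene, did not. Its processed signal lay between 31.5 and 93.8, where the lowest signal read as well above background was 12.0 to 16.7 per array.

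**Figure D3:**
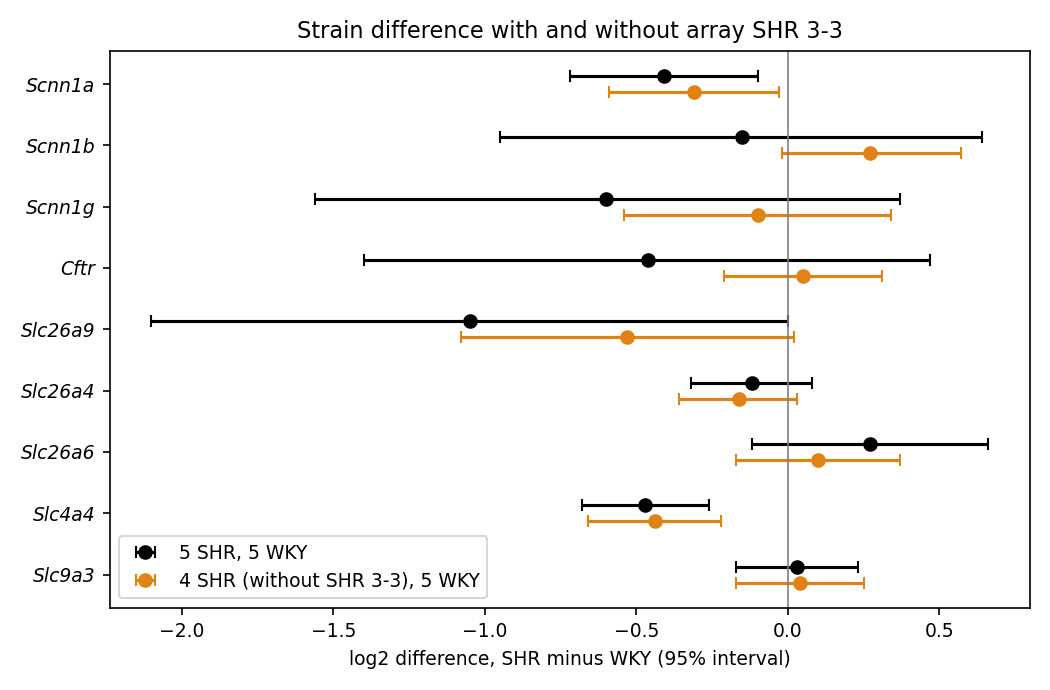
Log2 difference between strains, SHR minus WKY, with its 95% interval from the limma fit, for all 10 arrays (black) and without SHR 3-3 (orange). The intervals of Slc4a4 and Scnn1a stay below 0 in both, though Scnn1a did not pass after adjustment, and those of Cftr, Scnn1b and Scnn1g are narrower without SHR 3-3, with Cftr at 0.05 and Scnn1b at 0.27.

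The remaining exchangers did not pass the test. Slc26a6, which exchanges chloride for bicarbonate or oxalate, was 0.08 in SHR 2-1, 0.19 in SHR 2-3, −0.27 in SHR 3-1, 0.92 in SHR 3-3 and 0.34 in SHR 3-4, and ran from −0.15 to 0.18 in WKY with a median of −0.10. It was the reverse of Scnn1b and Scnn1g in that SHR 3-3 was the highest of the 10 rats and SHR 3-1 the lowest. Its log2 difference was 0.27 ± 0.18 (adjusted p = 0.425) and 0.10 ± 0.12 without SHR 3-3 (adjusted p = 0.696). Slc26a4, which encodes pendrin, had dim values of −3.15 to −2.70 in SHR and −2.83 to −2.69 in WKY, and a log2 difference of −0.12 ± 0.09 (95% interval −0.32 to 0.08, adjusted p = 0.506). Slc9a3 had −3.11 to −2.97 in SHR and −3.34 to −2.93 in WKY on its brighter probe, a log2 difference of 0.03 ± 0.09 (95% interval −0.17 to 0.23, adjusted p = 0.887). Its dimmer probe gave 0.46 ± 0.16 (adjusted p = 0.138), with −3.74 to −3.16 in SHR and −4.39 to −3.65 in WKY, with 3 of 5 SHR rats above all WKY rats.

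The rat-to-rat pattern within SHR was larger than the strain difference for several of these genes. Against the mean of the other SHR rats, SHR 3-3 differed by −2.60 for Slc26a9 (6.08-fold lower), −2.56 for Cftr (5.88-fold), −2.49 for Scnn1g (5.61-fold) and −2.12 for Scnn1b (4.35-fold) on the log2 scale. Deviations this low were reached by 36, 37, 43 and 70 of the 14711 genes in that array. At least 2-fold lower values in SHR 3-3 were thus found for 4 of 9 duct transport genes on the probes that stood for them, against 2.86% of all genes. The dimmer probes did not reach this, with 0.02 for Slc26a9 and −0.60 for Cftr. The processed signal of the brighter Slc26a9 probe in SHR 3-3 was as low as 26.3. Scnn1a differed by −0.49 in the same rat and Slc4a4 by −0.13, while Slc9a3 differed by −0.03, Slc26a4 by 0.23 and Slc26a6 by 0.84. With SHR 3-3 kept out of the mean, SHR 3-1 differed from the other 3 SHR rats by 0.88 for Scnn1g, 0.53 for Scnn1b, 0.30 for Cftr, −0.47 for Slc26a6 and −1.12 for Slc26a9. These are single rats, with no test.

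**Figure D4:**
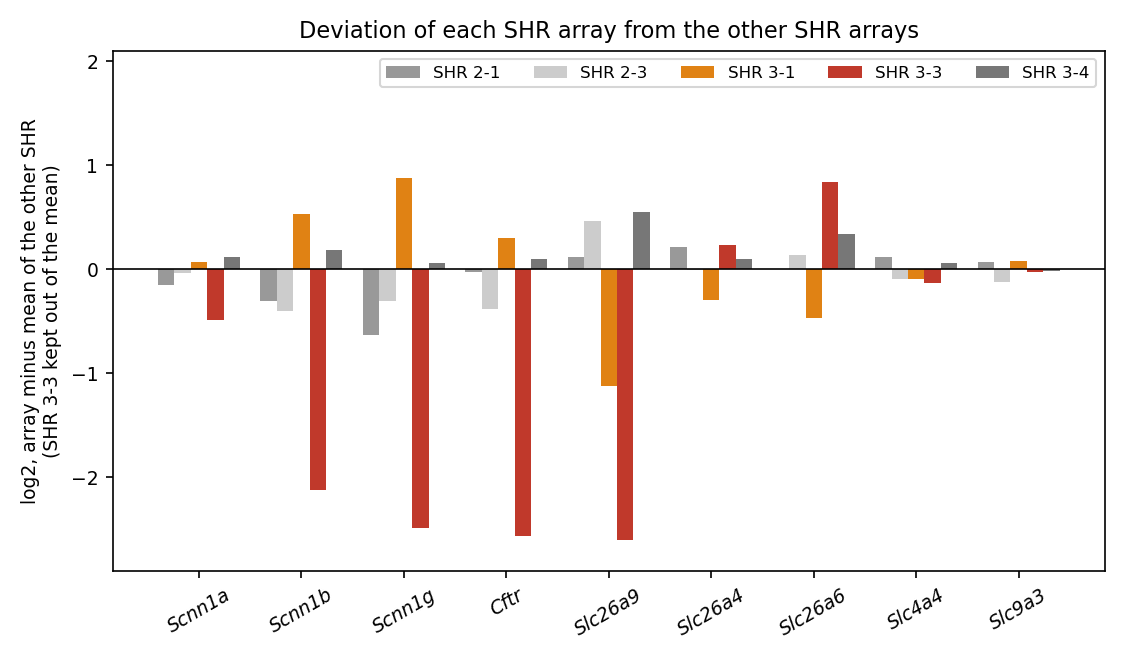
Log2 deviation of each SHR array from the average of the other SHR arrays, for the 9 genes on the probes that stood for them, with SHR 3-3 kept out of every average. SHR 3-3 (red) lies at −2.60 to −2.12 for Scnn1b, Scnn1g, Cftr and Slc26a9 and at 0.84 for Slc26a6, and the other arrays lie between −1.12 (SHR 3-1, orange, for Slc26a9) and 0.88 (SHR 3-1 for Scnn1g).

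Markers of other gland cells moved with this pattern in SHR 3-3. The summed level of the 9 tested granular tubule markers, on a linear scale in units of the array's 75th percentile, was 361 in SHR 3-3, between 986 and 1390 in the other SHR rats and between 842 and 963 in WKY. Of these 9 genes, 6 were at least 2-fold lower in SHR 3-3, with a median deviation of −2.64. A sum of this kind rests mostly on the brightest probes of its list. For the 9 duct markers the sum was 46.8 in SHR 3-3, 67.9 to 88.6 in the other SHR rats and 65.2 to 68.8 in WKY, and 3 were at least 2-fold lower. The sum of the 9 acinar markers was highest in SHR 3-3, at 1570, against 856 to 1310 in the other SHR rats and 699 to 819 in WKY. That of the 10 macrophage markers was 14.0 in SHR 3-3, 28.2 to 38.2 in the other SHR rats and 27.3 to 43.8 in WKY. The 3 parotid markers summed to 440 in SHR 3-3, 217 to 263 in the other SHR rats and 178 to 217 in WKY. Nearly all of this sum is its brightest gene, at a mean scaled log2 intensity of 7.80, against −2.07 and −3.35 for the rest. For the 8 skeletal muscle markers the sums were 79.1, 49.6 to 65.8 and 46.5 to 53.6, again mostly from the brightest gene, at 5.73, with no other above −0.24. The median deviation of SHR 3-3 was 0.30 over the parotid and 0.22 over the muscle markers, and 0 genes of either list were at least 2-fold higher. Sums of the sublingual, myoepithelial, endothelial and erythrocyte markers in SHR 3-3 lay within the range of the other SHR rats. The part of these shifts, or of array quality, in the low duct transport values of SHR 3-3 was not tested.

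The V-ATPase and ionocyte-like genes, a list that holds the transcription factor Foxi1 and proton pump subunits, deviated in SHR 3-3 as well, by a median of −1.01 over 8 tested members, 4 of them at least 2-fold lower. Among these, named after their values were seen, were Foxi1 (−2.45), Bsnd (−2.38) and the duct transcription factor Tfcp2l1 (−2.38). Among the ENaC regulators 2 of 16 were that low, also named after their values were seen: Hsd11b2, the enzyme that shields the mineralocorticoid receptor from glucocorticoids (−2.77), and Sgk1, an aldosterone-induced kinase that raises ENaC at the cell surface (−1.50). Of 16 partners and regulators of CFTR 0 were.

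Across the 10 rats the genes fell into sets that varied together, given here as Pearson correlations over arrays of shared slides and scaling. Cftr correlated with Scnn1g at 0.96 and with Scnn1b at 0.95, and Scnn1b with Scnn1g at 0.94. Without SHR 3-3 these became 0.69, 0.55 and 0.57. Slc26a9 correlated with Cftr at 0.82 over all rats and at −0.51 without SHR 3-3, so that its likeness to Cftr rested on that rat. Slc26a6 ran opposite to Scnn1g, at −0.92, and at −0.71 without SHR 3-3. Scnn1a and Slc4a4 correlated at 0.86, and at 0.85 without it. Both had a lower mean in SHR (log2 differences −0.41 and −0.47), so a correlation over both strains includes the strain difference. Within SHR the rat with the highest Slc4a4, SHR 2-1 (2.75), had a Scnn1a of −0.25, below all SHR rats but SHR 3-3. Correlations within a strain were not computed.

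For each of the 9 genes, the 3 named genes with the most similar values over the 10 rats were sought. For Slc4a4 these were Or5h26, an olfactory receptor gene (r = 0.973), Slc24a2, a potassium-dependent sodium-calcium exchanger (0.972), and Ncf1, a subunit of the NADPH oxidase (0.944). Their log2 differences between the strains were −0.85, −0.66 and −0.45. They were picked for likeness to a gene that separates the strains, so a lower level in SHR follows from that choice. Scnn1a was most like Coa5 (0.963), Ryr2 (0.962) and Bst1 (0.954), with 0.94, 0.98 and 0.93 without SHR 3-3. Their log2 differences between the strains were −0.63, −0.44 and −0.61, none past the threshold, and these correlations too include the strain difference. The genes most like Scnn1g were Akr1c15 (0.990), the potassium channel subunit gene Kcne3 (0.988) and Eif4e3 (0.986), which kept correlations of 0.94, 0.91 and 0.90 without SHR 3-3. Scnn1b was most like the glucose transporter gene Slc2a4 (0.983), Man2a1 (0.970) and Fxyd2, the gamma subunit of the sodium pump (0.967), with 0.90, 0.87 and 0.70 without SHR 3-3. Cftr was most like Sult1c3 (0.992), Cept1 (0.986) and Itgb6 (0.982), with 0.78, 0.72 and 0.77 without it. For Slc26a9 they were Pef1, Zc3h12d and Tpbg (0.953 to 0.966), for Slc26a6 Capn7, Ccdc28b and Cops3 (0.972 to 0.979), and for Slc26a4 Kcnmb1, Apoc1 and Syt11 (0.965 to 0.972). Those of Slc9a3, Myod1, Pmpca and Slc43a3, reached 0.829 to 0.887, and 0.44 to 0.68 without WKY 1-3. These likenesses are over 10 arrays and say nothing of shared function.

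Genes that act with these transporters were compared next. Of 64 genes in 4 lists of ENaC regulators, CFTR partners, basolateral and other acid-base transporters, and V-ATPase genes, 59 were tested: 1 was higher in SHR, 1 was lower and 57 did not pass, with a median log2 difference of −0.01. The share that passed was 3.39%, near the 4.36% of all genes. The strains did not overlap in 4 of the 59, or 6.78%, against 7.25% of all genes. Furin, a protease that cleaves and activates ENaC subunits, was higher in SHR by 1.39-fold (0.48 ± 0.11 SE on the log2 scale, 5 rats per strain, adjusted p = 0.0329) and was 1 of 16 ENaC regulators to pass. Leaving out any one of SHR 2-1, 3-1, 3-4, WKY 1-2, 1-3 and 4-1 ended its call (largest adjusted p = 0.0753, without SHR 3-4), as did the slide as a fixed block. Prkar2b, a regulatory subunit of the cyclic AMP-dependent kinase, was 1.42-fold lower (−0.50 ± 0.09, adjusted p = 0.00730) and was 1 of 16 CFTR partners to pass, a call that stood without any single array but not with the slide as a fixed block (−0.59 ± 0.17, adjusted p = 0.372). Of 19 basolateral and acid-base transporters and of 8 V-ATPase genes 0 passed in limma, with 6 and 2 at an unadjusted p below 0.05 and median log2 differences of 0.02 and −0.31. Without SHR 3-3 these medians were 0 and 0.03, and the kinase gene Wnk4 passed as lower and the proton pump subunit gene Atp6v1b1 as higher, both named after their values were seen. In that fit 4.92% of all genes passed.

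Marker genes of the cell types a gland can hold were compared in the same way, where 4.36% of all genes passed and 20.3% had an unadjusted p below 0.05. Of the 9 duct and the 9 granular tubule markers 0 passed in limma, with 0 and 2 at an unadjusted p below 0.05 and median log2 differences of 0.17 and −0.21. Without SHR 3-3 these medians were 0.17 and 0.08, and the duct keratins Krt7 and Krt19 passed as higher and the kallikrein genes Klk1c10 and Klk1c12 in opposite directions, all 4 named after their values were seen. In that fit 4.92% of all genes passed. SHR 3-3 deviated from the other SHR rats by −2.20, −1.32, −2.81 and −5.09 for these 4 genes, so leaving it out raises their SHR means. Of 9 genes listed here as acinar markers, Smgc (log2 difference −4.10 ± 0.35 SE, n = 5 per strain, adjusted p = 2.3e-05), Cyss (−4.06 ± 0.34, adjusted p = 2.3e-05) and Prpmp5 (−1.73 ± 0.15, adjusted p = 2.58e-05) were lower. Which cells of the gland held these transcripts was not measured. Prpmp5 missed the threshold with the slide as a fixed block (adjusted p = 0.0613). Oprpn was higher (0.61 ± 0.15, adjusted p = 0.0434), a call lost in 13 of 23 alternatives, with differences of 0.16 under quantile normalisation, 0.09 with normexp and 0.16 in the authors' values. It was also lost without any one of SHR 2-1, 2-3 and 3-4 or of the 5 WKY rats (largest adjusted p = 0.106). Of 10 macrophage markers Fcer1g (−1.18, adjusted p = 0.00710), Cd68 (−0.97, adjusted p = 0.00668) and Aif1 (−0.81, adjusted p = 0.0293) were lower. All 3 lost the call with the slide as a fixed block, and leaving out any one of SHR 2-3 and 3-1 and WKY 1-3, 4-1 and 4-2 ended that of Aif1 too (largest adjusted p = 0.0851). Of 3 parotid markers Prb3 was lower (−0.64, adjusted p = 0.0127), a call lost with normexp (−0.27, adjusted p = 0.0578) and the fixed slide block (adjusted p = 0.396). Of 8 endothelial markers Plvap was higher (0.60, adjusted p = 0.0443), a call lost in 9 of 23 alternatives, namely the fixed slide block (adjusted p = 0.702) and without any one of SHR 2-1, 2-3, 3-3, 3-4, WKY 1-2, 1-3, 4-1 and 4-2 (largest adjusted p = 0.109). Of 4 sublingual, 10 myoepithelial, 5 erythrocyte and 8 skeletal muscle markers 0 passed, with 2, 2, 1 and 3 at an unadjusted p below 0.05. The summed acinar level was 856 to 1570 in SHR and 699 to 819 in WKY, and that of the macrophage markers 14.0 to 38.2 and 27.3 to 43.8. The acinar sum rests mostly on Oprpn, Car6 and Pip, at a mean scaled log2 intensity of 8.30, 8.14 and 7.94. Car6 and Pip were named after their values were seen. The lower Smgc, Cyss and Prpmp5 hardly enter that sum, so it is no measure of acinar RNA as a whole. The part of these shifts in the lower Slc4a4 of SHR was not tested.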

How the data were processed

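Per the labels' protocols, Trizol was used to isolate total RNA, which was then linearly amplified with Cy3 as the label. Per the file headers, Agilent Feature Extraction 11.0.1.1 made the deposited linear intensity (processed signal) by removing background and spatial trends inside each array, with no step across arrays. The authors' own table gives 30423 probes on a log2 scale, and every column has the same median (7.19) and 75th percentile (8.79), as quantile normalisation gives. Its making is not described in the labels.

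Log2 processed intensity was reduced by each array's 75th percentile. Outlier spots were left out and spots of a probe averaged. Symbols came from RefSeq accessions (GRCr8), which named 18005 of 30367 probes. A probe had to be well above background on at least 5 of 10 arrays, and the brightest such probe stood for a gene, giving 14711 genes. SHR was compared with WKY by limma (two-sided, Benjamini-Hochberg over all genes, threshold 0.05), also over all 17385 probes of named genes. The sources give separate rats, 5 per strain, and the number of arrays limits the precision. The 9 genes and the lists were chosen with earlier results of these data known. Besides the 9 genes, the text names up to 4 genes past the threshold in each list and the 3 genes most like each of the 9; others are marked as chosen after their values were seen, and 1 gene of a list is not reported here. On simulated data for SHR minus WKY over 14711 genes, 42% of 50 genes changed by 0.5 on the log2 scale were recovered and 92% of 50 changed by 1. Alternatives covered scaling, background correction, the authors' values, filters, probe choice, slide and title number as blocks, weights, variance model and leaving out each array. Versions were R 4.3.3, limma 3.58.1, Python 3.11.15, pandas 2.3.3 and matplotlib 3.10.9.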

Additional observations from a re-analysis of the deposited data

Results flagged for a closer look

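In groups of 5 rats, a rat was singled out where its gap to the nearest other, over the group's range, exceeded Dixon's 95% critical value. Of 26 probe and strain groups 4 were marked, where chance marks about 1 in 20. Cftr in SHR 3-3 was at a scaled log2 intensity of 0.10, with the next SHR rat at 2.38 (gap over range 0.817). Scnn1b in SHR 3-3 was at −2.28, with the next at −0.46 (0.725). The dimmer Slc26a9 probe in SHR 3-1 was at −3.79, with the next at −3.40 (0.723). Slc9a3 in WKY 1-3 was at −3.34, with the next at −3.03 (0.748). The part of array quality or cell composition in these values was not tested.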

How the results depend on the processing

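The count of duct transport genes past the threshold, 1, was 0 with the slide as a fixed block, 3 with the slide as a random block (Scnn1a, Slc26a9 and Slc4a4), 2 with the first number of the title as a random block and 2 where any probe of a gene could pass. The within-block correlations of the random fits were −0.19 over 3 slides and −0.16 over 4 title numbers. With the slide as a random block 3451 of 14711 genes passed, and with the title number 1779, against 641 in the main fit. Leaving out 1 array gave 0 to 1, with 0 without WKY 1-2. The 2 pathway list genes became 4 with quantile normalisation, 4 from the authors' table, 0 for the fixed slide block, 12 with it as a random block, 9 with the title number as a random block, 6 with array weights and 4 with an intensity trend. Leaving out 1 array gave 1 to 4, with 1 without SHR 3-1, SHR 3-4, WKY 1-2, WKY 1-3 or WKY 4-1 and 4 without SHR 3-3. The direction turned for Cftr (0.03), Scnn1b (0.03) and Slc26a4 (0.00) with the slide as a fixed block, and for Scnn1b (0.07) with array weights. Leaving out 1 array gave −0.65 to 0.05 for Cftr, −0.36 to 0.27 for Scnn1b and −0.04 to 0.06 for Slc9a3. The cause was not tested. With median scaling, quantile normalisation, normexp or the authors' values none of the 9 genes changed direction or call.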
